A study of Mus musculus with 8 samples.

Results

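Neutrophils and eosinophils, the granulocytes of the blood, carry killing proteins ready-made in cytoplasmic granules. The messenger RNAs of 10 proteins of these cells were followed in lymph nodes that drain the pancreas. All 10 are called granule genes below, although the proteins of S100a8 and S100a9 lie in the cytosol. The 10 genes were taken by name: Mpo, Ctsg, Prtn3, Camp, Ngp, Ltf, S100a8 and S100a9, whose proteins are known from neutrophils, and Prg2 and Epx, whose proteins are known from eosinophils. Every non-control probe of the array that carries 1 of these names was used, which gave 11 probes (Ltf had 2, the others 1 each) among 41174 probes and 10 genes among 27745 gene names. The rule itself used no measured value. Of the 10 genes, 9 passed the filter on dim probes and were tested with 18410 genes in all, and Epx did not pass.

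The mice were Deaf1 knockouts of the BALB/c strain, aged 4 weeks (2 mice), 12 weeks (3 mice) and 30 weeks (3 mice), and Deaf1 encodes a transcription factor. Each knockout mouse had an array of its own, on which its Cy5-labelled RNA was co-hybridised with Cy3-labelled RNA pooled from wild-type littermates, 2 mice in the pool at 4 weeks and 3 mice at 12 and at 30 weeks. Values are given as the log2 ratio of knockout over pool and as the log2 level of each channel, with arrays in the order of their replicate numbers. All groups share the strain, and no array had its dyes swapped or set a single wild-type mouse against a pool, so dye and genotype cannot be told apart and the spread among wild-type mice enters no test.

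Neutrophil granules form in waves as the cell matures in the bone marrow. Azurophil granules come first and hold myeloperoxidase and serine proteases, specific granules follow with lactoferrin and cathelicidin, and the calcium-binding pair S100a8 and S100a9 fills much of the cytosol. Messenger RNAs of azurophil and specific granule proteins are made mainly in marrow precursors and are low in mature neutrophils. Eosinophils are known to store major basic protein and eosinophil peroxidase in crystalloid granules.

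Each value below is the hybridisation signal of a 60-base probe. The probes of 5 of the genes are printed here as they stand in the deposited files, 5′ to 3′, each with at least 1 reading frame free of stop codons. Those of Mpo, Ctsg, Prtn3, S100a9 and Epx are not printed. In the mm8 coordinates of the files the Prg2 probe lies at chr2:84783481-84783540, the Camp probe at chr9:109704884-109704943, the Ngp probe at chr9:110266929-110267477, the brighter Ltf probe at chr9:110885185-110885244 and the S100a8 probe at chr3:90755783-90755842. The interval of the Ngp probe is longer than the probe itself.
Prg2 probe: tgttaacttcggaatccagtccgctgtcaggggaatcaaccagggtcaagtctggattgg
Camp probe: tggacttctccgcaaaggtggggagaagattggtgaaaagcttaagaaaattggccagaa
Ngp probe: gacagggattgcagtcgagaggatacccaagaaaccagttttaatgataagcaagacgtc
Ltf probe: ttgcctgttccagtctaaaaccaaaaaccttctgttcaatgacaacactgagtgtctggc
S100a8 probe: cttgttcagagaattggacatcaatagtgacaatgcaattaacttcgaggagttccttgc

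The genes were spread over 6 chromosomes. Camp, Ngp and Ltf all lay on chromosome 9, with 561986 bases between the Camp and Ngp probes and 613099 bases between the Ngp probe and the nearer Ltf probe. S100a8 and S100a9 lay 22748 bases apart on chromosome 3, and Mpo and Epx 60411 bases apart on chromosome 11.

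Promoters of members that moved together on the arrays were read from RefSeq (GRCm38.p6, 250 bases before to 50 bases from the transcript start), which held 9 of the 10 genes. Capitals mark matches on either strand to TTNNGNAA, the core of the site bound by C/EBP factors of granulocytes, and to GAGGAA, a core bound by the myeloid factor PU.1. The printed windows are chr11:87793534-87793833 (plus strand) for Mpo, chr9:110419558-110419857 (plus) for Ngp, chr9:111019042-111019341 (plus) for Ltf and chr3:90695672-90695971 (minus) for S100a9.
Mpo promoter: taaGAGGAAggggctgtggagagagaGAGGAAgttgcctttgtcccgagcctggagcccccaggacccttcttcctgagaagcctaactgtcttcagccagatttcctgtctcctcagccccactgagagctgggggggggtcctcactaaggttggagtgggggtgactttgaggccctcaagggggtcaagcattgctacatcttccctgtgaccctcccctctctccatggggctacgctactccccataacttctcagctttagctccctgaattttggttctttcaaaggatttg
Ngp promoter: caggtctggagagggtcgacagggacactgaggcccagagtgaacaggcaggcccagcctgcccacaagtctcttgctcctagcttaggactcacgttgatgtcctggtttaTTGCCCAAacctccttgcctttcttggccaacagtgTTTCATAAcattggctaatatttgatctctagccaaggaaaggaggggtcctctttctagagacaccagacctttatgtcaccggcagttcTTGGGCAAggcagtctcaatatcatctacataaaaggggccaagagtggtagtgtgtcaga
Ltf promoter: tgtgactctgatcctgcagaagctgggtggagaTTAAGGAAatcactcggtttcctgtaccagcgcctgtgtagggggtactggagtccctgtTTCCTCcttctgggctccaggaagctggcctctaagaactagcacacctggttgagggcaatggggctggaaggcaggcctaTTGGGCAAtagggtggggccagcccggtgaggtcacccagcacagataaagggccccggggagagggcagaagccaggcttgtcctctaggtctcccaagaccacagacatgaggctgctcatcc
S100a9 promoter: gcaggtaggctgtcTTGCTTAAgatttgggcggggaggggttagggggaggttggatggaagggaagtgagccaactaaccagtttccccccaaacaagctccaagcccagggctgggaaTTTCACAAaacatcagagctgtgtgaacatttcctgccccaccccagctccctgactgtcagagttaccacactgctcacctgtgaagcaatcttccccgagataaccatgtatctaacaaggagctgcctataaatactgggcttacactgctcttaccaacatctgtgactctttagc

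The C/EBP letters occurred 3 times in the Ngp window, at -138, -102 and -11 from the start, 2 times in that of Ltf, at -217 and -75, 2 times in that of S100a9, at -236 and -130, and 1 time in that of S100a8, at -117. They were found in 4 of the 9 windows, and in 40.7% of all 32851 promoters of the same length. The PU.1 letters occurred in 5 of the 9 windows (Mpo, Ctsg, Prtn3, Ltf and S100a8) and in 28.3% of all promoters. These are matches of letters only, and no match of the 2 motifs overlapped another in the printed windows.

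Between 37.2% and 71.4% of probes were well above background in a channel, and no spot was saturated. The 4-week arrays formed 1 slide, read by another scanner and software version than the other slides, so differences of level or of ratio between 4 weeks and later ages cannot be told apart from those. Replicate 2 of 12 weeks stood apart by sex-linked genes, with an Xist ratio of 5.32, against -0.40 and 0.33 on the other 12-week arrays. Its ratios for the Y-linked genes were -3.89 for Ddx3y, against 0.91 and 0.62, and -4.86 for Eif2s3y, against 0.78 and 0.48. These are the values of a female mouse set against a male pool, read from expression because no sex was taken from the labels. Replicate 2 of 30 weeks stood apart by pancreatic acinar genes, with a median ratio of 4.04 over 17 acinar markers, against -4.25 and -4.58 on the other 30-week arrays. Deaf1 itself had ratios of -0.22 and -0.12 at 4 weeks, 0.34, 0.35 and 0.32 at 12 weeks, and 0.14, 0.00 and 0.15 at 30 weeks. Where the probe lies relative to the deleted part is not given in the sources used here, so this probe checks nothing about the genotype. The 12 lymphocyte markers were all well above background on every array of the knockout channel, and in the pool channel Cd4 was on 7 of 8 arrays. These markers show lymphocyte RNA and do not by themselves single out a lymph node.

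Prg2, which encodes eosinophil major basic protein, was lower in knockout nodes at 12 and 30 weeks. Its ratios were 0.26 and -0.06 at 4 weeks, -1.11, -1.08 and -1.28 at 12 weeks, and -1.12, -0.77 and -0.88 at 30 weeks. The 4-week arrays lay on both sides of 0, and all 6 later arrays lay below every 4-week array. The share of all genes with such a separation is not given, so it is not read as particular to Prg2. The mean ratio was 0.10 ± 0.23 at 4 weeks (SD, n = 2), -1.16 ± 0.11 at 12 weeks (SD, n = 3) and -0.92 ± 0.18 at 30 weeks (SD, n = 3). This corresponds to a level 2.23-fold lower than the pool at 12 weeks and 1.90-fold lower at 30 weeks.

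In the limma fit across all 18410 genes, Prg2 was called lower at 12 weeks (adjusted p = 0.00321) and at 30 weeks (adjusted p = 0.000795), and was not called at 4 weeks (adjusted p = 0.577). The difference of ratios between ages was itself called for 12 minus 4 weeks (-1.26 with a standard error of 0.14, adjusted p = 0.00615) and for 30 minus 4 weeks (-1.02 with a standard error of 0.14, adjusted p = 0.00372). For 30 minus 12 weeks the difference was 0.24, with a 95% interval of -0.06 to 0.53 and an adjusted p of 0.330 in limma. When only the arrays of 12 weeks were fitted, the 12-week call was lost (adjusted p = 0.0649), and without replicate 1 of 4 weeks the call for 12 minus 4 weeks was lost (adjusted p = 0.0709). Each age had a pool of its own, so a difference of ratios between ages cannot be told apart from a difference between pools. For the differences from 4 weeks, slide, scanner and software version cannot be told apart from age either.

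Prg2 had log2 levels of 9.99 and 9.24 in knockout mice at 4 weeks, against 9.73 and 9.30 in the pool. At 12 weeks the levels were 8.96, 8.94 and 8.77 in knockout mice, against 10.07, 10.02 and 10.06 in the pool, and at 30 weeks 9.04, 9.29 and 9.22 in knockout mice, against 10.15, 10.07 and 10.10 in the pool. At both later ages every knockout array lay below every pool channel, and the pool means of 12 and 30 weeks differed by 0.06. In these whole-node samples, fewer cells of a type and less RNA per cell cannot be told apart.

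**Figure D1:**
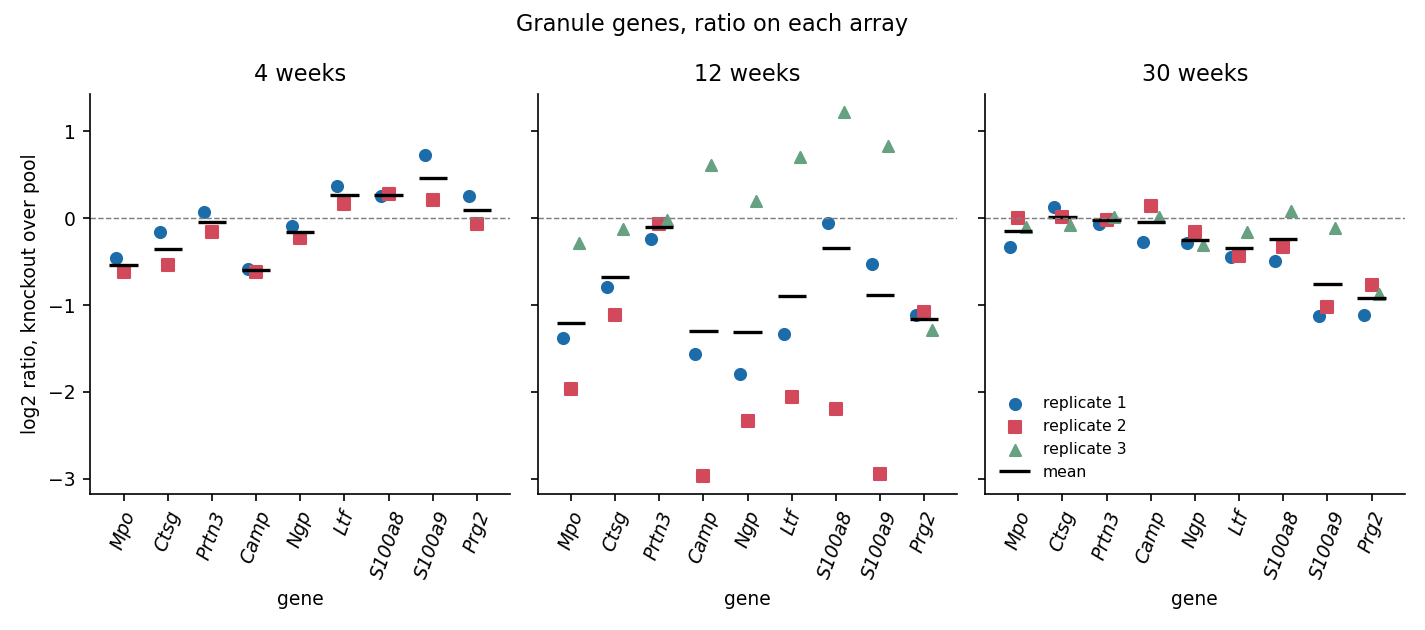
Log2 ratio of knockout over pool (y axis) for the 9 granule genes that passed the filter (x axis), 1 panel per age; points are arrays, shaped and coloured by replicate number, and black bars are means. At 12 weeks the 3 Prg2 points run between -1.28 and -1.08, while the Camp points run between -2.96 and 0.62.

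Epx, eosinophil peroxidase, could not be followed. Its probe was well above background in 1 knockout channel (replicate 1 of 4 weeks) and in 1 pool channel (the array of replicate 2 of 12 weeks) and nowhere else, so it failed the filter and no fold is given. Its ratios ran between -0.28 and 0.09 over the 8 arrays.

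The other genes known from eosinophils were read beside Prg2. Of the 17 genes of this list, 13 were on the array and 10 passed the filter, Prg2 among them. At 4 weeks 3 were called higher and none lower, at 12 weeks 2 were called lower and none higher, and at 30 weeks 4 were called lower and none higher. Over all 18410 genes, 15.3% were called higher at 4 weeks, 1.37% lower at 12 weeks and 18.4% lower at 30 weeks. The median ratio of the 10 genes was 0.40 at 4 weeks, -0.21 at 12 weeks and -0.20 at 30 weeks, against 0.02, 0.02 and 0.03 over all genes tested.

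Prg3, the paralogue of Prg2 that encodes a second major basic protein, had ratios of -0.01 and -0.29 at 4 weeks, -1.14, -0.29 and -0.89 at 12 weeks, and -0.96, -0.86 and -1.33 at 30 weeks. It was lower than the pool on all 8 arrays. It was called at 12 weeks (-0.77, limma adjusted p = 0.0466) and at 30 weeks (-1.05, limma adjusted p = 0.00190), and the 12-week call was lost in 14 of 22 alternatives. Probes of Prg2 and Prg3 could share signal where the paralogues are alike, which the files do not show.

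Il5ra, a subunit of the receptor for interleukin 5, the growth factor of eosinophils, was called lower at 30 weeks (-0.47, limma adjusted p = 0.00987). Alox15, a lipoxygenase abundant in eosinophils, was called lower at the same age (-0.62, limma adjusted p = 0.0103). The genes called higher at 4 weeks were eosinophil-associated ribonucleases: Rnase2a (0.61, limma adjusted p = 0.0251), Ear3 (0.39, limma adjusted p = 0.0257) and Ear10 (0.56, limma adjusted p = 0.0469), whose call was lost in 9 of 22 alternatives. Rnase2a, Ear3 and Ear10 belong to a family of near-identical copies, so the split of signal between them is uncertain. Replicate 1 gave the larger value of the 4-week pair for each of them, 0.98 against 0.25 for Rnase2a. Ear1, Ear6 and Ccr3 of the same list were called at no age. Their 30-week ratios were -0.34, -0.08 and -0.09 for Ear1, -0.18, 0.08 and 0.06 for Ear6, and 0.07, 0.66 and 0.43 for Ccr3.

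**Figure D2:**
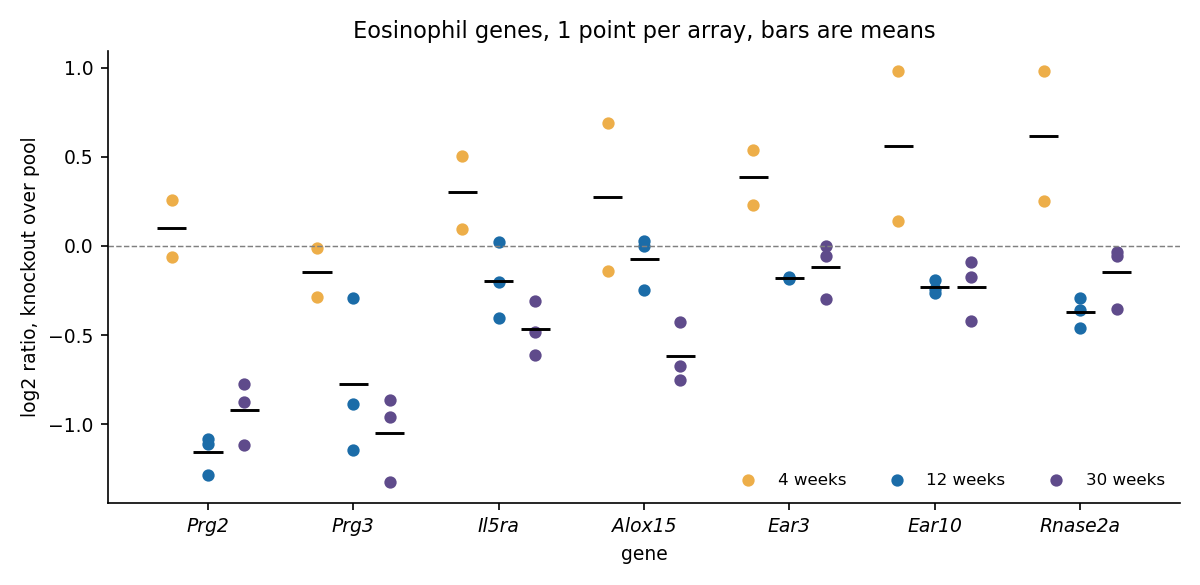
Log2 ratio of knockout over pool (y axis) of Prg2 and 6 other eosinophil genes that were called at an age (x axis), with 1 point per array, coloured by age, and bars at the means. The 4-week points of Rnase2a, Ear3 and Ear10 lie above 0, and the 30-week points of all 7 genes lie at or below 0. Ear1, Ear6 and Ccr3 of the same list were called at no age and are not drawn, and the 30-week ratios of Ccr3 were above 0.

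Mpo, myeloperoxidase, which makes hypochlorous acid in neutrophils, was lower in knockout nodes at 12 weeks. Its ratios were -0.45 and -0.62 at 4 weeks, -1.38, -1.96 and -0.29 at 12 weeks, and -0.33, 0.00 and -0.11 at 30 weeks. No array stood above its pool beyond rounding, and the 12-week mice spread more widely than those of the other ages. The 12-week mean was -1.21 ± 0.85 (SD, n = 3), a level 2.32-fold lower than the pool.

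The limma fit called Mpo lower at 12 weeks (adjusted p = 0.0472) and not at 4 weeks (-0.54, adjusted p = 0.250) or at 30 weeks (-0.14, adjusted p = 0.684). The 12-week call was lost in 14 of 22 alternatives, over which the ratio ran between -1.67 and -0.73 and the adjusted p between 0.000364 and 0.257. Without replicate 2 of 12 weeks the ratio was -0.84 (limma adjusted p = 0.0493), and without replicate 3 it was -1.67 (limma adjusted p = 0.00659).

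Ctsg, cathepsin G, a serine protease of the same azurophil granule, had ratios of -0.16 and -0.54 at 4 weeks, -0.79, -1.12 and -0.12 at 12 weeks, and 0.12, 0.01 and -0.08 at 30 weeks. The order of the 12-week mice was that of Mpo, and the groups of 4 and 12 weeks overlapped. Its 12-week mean of -0.68 missed the threshold (limma adjusted p = 0.0629).

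Prtn3 encodes proteinase 3. Its probe stood well above background in neither channel at 4 weeks, on all 3 arrays in both channels at 12 weeks, and at 30 weeks on 2 of 3 arrays in the knockout channel and 1 of 3 in the pool channel. Over all 8 arrays its log2 levels lay between 6.30 and 6.53 in knockout mice and between 6.26 and 6.70 in the pools, and its ratios between -0.24 and 0.07.

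Camp, Ngp and Ltf, the cathelicidin, the neutrophilic granule protein and lactotransferrin of specific granules, shared a pattern in which the 12-week mice differed among themselves. Camp had ratios of -0.58 and -0.62 at 4 weeks, -1.56, -2.96 and 0.62 at 12 weeks, and -0.28, 0.13 and 0.02 at 30 weeks. Ngp had ratios of -0.09 and -0.23 at 4 weeks, -1.79, -2.33 and 0.20 at 12 weeks, and -0.29, -0.16 and -0.31 at 30 weeks. Ltf had ratios of 0.37 and 0.16 at 4 weeks, -1.33, -2.06 and 0.70 at 12 weeks, and -0.45, -0.43 and -0.16 at 30 weeks on its brighter probe. In all 3 genes replicates 1 and 2 of 12 weeks were below the pool, with replicate 2 the lowest, and replicate 3 was above it. The second Ltf probe gave -1.30, -1.88 and 0.69 on the 12-week arrays, the same order.

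None of the 3 was called at 12 weeks. The means were -1.30 ± 1.80 for Camp (SD, n = 3, limma adjusted p = 0.162), -1.31 ± 1.33 for Ngp (SD, n = 3, limma adjusted p = 0.0903) and -0.90 ± 1.43 for Ltf (SD, n = 3, limma adjusted p = 0.212). Without replicate 3 of 12 weeks, 6 members were called lower at that age in place of 2, namely Mpo, Ctsg, Camp, Ngp, Ltf and Prg2. Over all genes, 131 were called at 12 weeks in that fit, 24.4% of them higher, against 480 with all arrays. That fit leaves out the 12-week array with the highest ratio of each neutrophil gene. At 30 weeks Ngp was not well above background in any knockout mouse and in 1 of 3 pool channels, so its 30-week ratio has only a bound.

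S100a8 and S100a9, whose proteins pair as calprotectin, also differed widely among the 12-week mice. S100a8 had ratios of 0.26 and 0.28 at 4 weeks, -0.06, -2.19 and 1.22 at 12 weeks, and -0.49, -0.33 and 0.08 at 30 weeks. S100a9 had ratios of 0.72 and 0.21 at 4 weeks, -0.53, -2.94 and 0.83 at 12 weeks, and -1.13, -1.02 and -0.12 at 30 weeks. Again replicate 2 was the lowest and replicate 3 the highest of the 12-week mice, and neither gene was called at any age (limma adjusted p between 0.326 and 0.803). Leaving out replicate 2 turned the 12-week mean of S100a8 to 0.58 and that of S100a9 to 0.15, both not called.

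Set side by side, the 8 neutrophil genes put replicate 3 highest among the 12-week mice in 8 of 8 cases and replicate 2 lowest in 7 of 8, Prtn3 being the exception. Replicates 1 and 2 were below the pool for all 8. How many of all genes share this order or these signs was not counted, so neither is read as particular to these genes. Over the 8 arrays the ratios of Mpo, Ctsg, Camp, Ngp, Ltf, S100a8 and S100a9 correlated with each other at Pearson's r between 0.51 and 0.96 (21 pairs, median 0.87). Those of Prtn3 correlated with these 7 at r between 0.12 and 0.56, and those of Prg2 with all 8 neutrophil genes at r between 0.06 and 0.42. These are descriptions over arrays that share pools, slides and the wide spread of the 12-week mice. Other lists moved with the same mice: the median ratio of 10 fat cell markers was -1.47, -1.30 and -0.04 on the 12-week arrays, and that of 10 erythroid markers was 0.06, -0.54 and 0.25. Replicate 2 was also the mouse that differed from its pool in sex-linked genes. The part of these lists and of the sex-linked difference in the result was not tested.

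Counted over the 9 genes that passed the filter, none was called at 4 weeks, where 7.38% of all genes were called lower and 15.3% higher. At 12 weeks 2 were called lower (Mpo and Prg2), where 1.37% of all genes were, and none higher, where 1.23% were. At 30 weeks 1 was called lower (Prg2), where 18.4% of all genes were, and none higher, where 20.7% were. For 12 minus 4 weeks 1 was called lower (Prg2, with 5.61% of all genes), for 30 minus 4 weeks 1 (Prg2, with 11.7%) and none higher (7.09% of all genes), and for 30 minus 12 weeks none in either direction (0.456% of all genes lower, 0.32% higher). At an unadjusted p under 0.05 limma gave 0 of the 9 at 4 weeks (36.0% of all genes), 5 at 12 weeks (25.7%), 1 at 30 weeks (48.4%), 1 for 12 minus 4 weeks (23.1%), 2 for 30 minus 12 weeks (21.2%) and 1 for 30 minus 4 weeks (34.3%). The median ratio of the 9 was -0.05 at 4 weeks, -0.90 at 12 weeks and -0.25 at 30 weeks, against 0.02, 0.02 and 0.03 over all genes tested.

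The levels of most neutrophil genes were lower at the later ages in both channels. S100a9 had log2 levels of 15.42 and 14.51 in knockout mice at 4 weeks, 13.25, 10.84 and 14.44 at 12 weeks, and 9.20, 9.35 and 10.27 at 30 weeks. In the pools it had 14.70 and 14.30 at 4 weeks, 13.78, 13.79 and 13.61 at 12 weeks, and 10.33, 10.37 and 10.39 at 30 weeks. In both channels every 30-week array lay below every 12-week array, by 9.43-fold in knockout means and 10.3-fold in pool means. Channels of 1 pool on several arrays repeat the same RNA, as far as the labels show, so their closeness is technical and no test of the levels is given. The share of all genes whose ages do not overlap in level is not given. Remarks on overlap here and below are thus descriptions only.

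Camp had levels of 10.54 and 9.79 in knockout mice at 4 weeks, 7.73, 6.46 and 10.03 at 12 weeks, and 6.13, 6.39 and 6.45 at 30 weeks. In the pools it had 11.12 and 10.41 at 4 weeks, 9.29, 9.42 and 9.41 at 12 weeks, and 6.41, 6.26 and 6.44 at 30 weeks. At 30 weeks it was near background, well above it in 1 of 3 knockout channels and 3 of 3 pool channels. Camp was 3.36-fold lower in knockout means and 8.04-fold lower in pool means at 30 than at 12 weeks. The offset added in the background correction compresses low levels, and with the scanner's processed signal the pool value was 33.6-fold.

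Mpo had levels of 10.36 and 10.18 in knockout mice at 4 weeks, 7.86, 7.36 and 9.03 at 12 weeks, and 6.68, 7.03 and 6.80 at 30 weeks. In the pools it had 10.81 and 10.80 at 4 weeks, 9.24, 9.32 and 9.32 at 12 weeks, and between 6.91 and 7.03 on the 3 arrays of 30 weeks. The ages did not overlap in either channel. S100a8, Ngp and Ltf gave pool levels 4.71-fold, 5.34-fold and 4.17-fold lower at 30 than at 12 weeks, and Ctsg 2.01-fold lower. Ngp in knockout mice at 30 weeks was at least 2.46-fold lower than at 12 weeks, a bound because no knockout channel was well above background. Prg2 was 1.22-fold higher at 30 than at 12 weeks in knockout mice, and Prtn3 was near background at both ages.

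**Figure D3:**
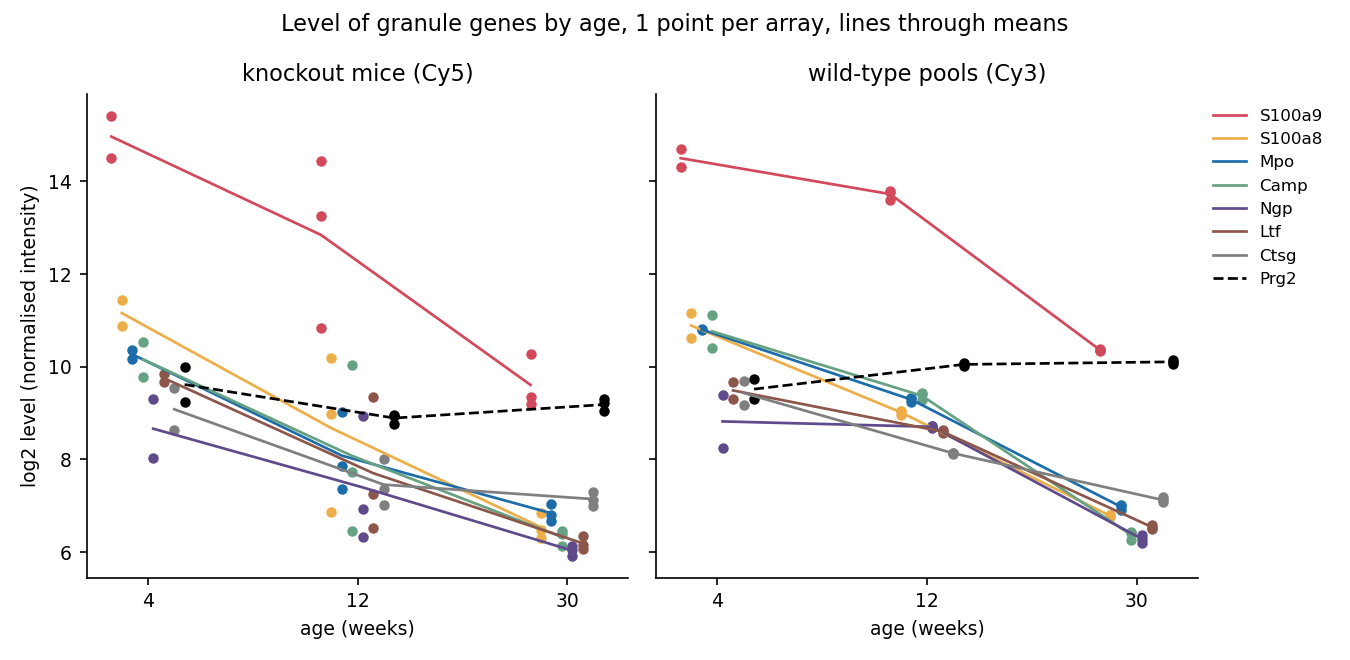
Log2 level (y axis, normalised intensity) of 7 neutrophil genes and Prg2 (dashed) at each age (x axis, ages drawn at equal steps), in knockout mice on the left and in the wild-type pools on the right; points are arrays and lines join the means. Within a gene, the means of the neutrophil genes lie lowest at 30 weeks in both panels and those of Prg2 do not; levels of different probes are not comparable with each other.

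S100a8 had levels of 10.88 and 11.43 in knockout mice at 4 weeks, 8.99, 6.86 and 10.18 at 12 weeks, and 6.30, 6.47 and 6.84 at 30 weeks. In the pools it had 10.62 and 11.15 at 4 weeks, 9.05, 9.05 and 8.96 at 12 weeks, and 6.79, 6.79 and 6.76 at 30 weeks. The ages did not overlap in either channel, although the lowest 12-week mouse, replicate 2, lay next to the highest 30-week mouse. Ltf had levels of 9.67 and 9.84 in knockout mice at 4 weeks, 7.25, 6.52 and 9.34 at 12 weeks, and 6.07, 6.15 and 6.35 at 30 weeks. In the pools it had 9.30 and 9.68 at 4 weeks, 8.58, 8.58 and 8.64 at 12 weeks, and 6.52, 6.58 and 6.51 at 30 weeks. The order of the ages was the same in both channels, without overlap. Ngp had levels of 9.30 and 8.02 in knockout mice at 4 weeks, 6.92, 6.34 and 8.93 at 12 weeks, and 5.92, 6.12 and 6.06 at 30 weeks. In the pools it had 9.39 and 8.25 at 4 weeks, 8.71, 8.67 and 8.73 at 12 weeks, and 6.21, 6.28 and 6.37 at 30 weeks. For Ngp the ages of 4 and 12 weeks overlapped in both channels.

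A level at least 4-fold lower at 30 than at 12 weeks was counted for all genes. In the pools 26 of 18410 genes (0.141%) had it, 6 of the 9 granule genes among them (S100a9, Camp, Ngp, Mpo, S100a8 and Ltf). In knockout mice 31 genes (0.168%) did, 2 of the 9 among them (S100a9 and S100a8), and 19 genes did in both channels. The knockout levels at 30 weeks are near background, where Ngp was well above it on 0 of 3 knockout arrays and Camp and Ltf on 1 of 3 each. With the scanner's processed signal 6 of the 9 were at least 4-fold lower in knockout mice (0.483% of all genes) and 6 of the 9 in the pools (0.407%), so the difference between the channels in this count depended on the processing. At 12 against 4 weeks 5 of the 9 were at least 4-fold lower in knockout mice (0.125% of all genes were) and 0 of the 9 in the pools (0.228%). At 30 against 4 weeks 6 of the 9 were at least 4-fold lower in knockout mice (0.304% of all genes were) and 7 of the 9 in the pools (0.364%). Within slide 2, which held all 12-week arrays and replicate 1 of 30 weeks, the 30-week level of S100a9 differed by -3.64 in the knockout mouse and by -3.39 in the pool on the log2 scale, and that of Camp by -1.94 and -2.96.

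Beside the granule genes, 6 of the 10 erythroid markers were at least 4-fold lower at 30 than at 12 weeks in both channels, with Slc4a1, the anion exchanger of red cells, at -4.13 in knockout mice and -4.28 in the pool on the log2 scale. The summed level of the erythroid markers ran between 9045 and 19684 in knockout mice and between 10968 and 11667 in the pool at 30 weeks, against 110189 to 177434 and 140271 to 155674 at 12 weeks. In the other direction, 17 of 17 acinar markers in knockout mice and 16 of 17 in the pools were at least 4-fold higher at 30 than at 12 weeks. Their median differences were 5.95 and 8.16 on the log2 scale. Over all 18410 genes, 40 in knockout mice and 49 in the pools were at least 4-fold higher. The part of the erythroid and acinar markers in the lower levels of the granule genes was not tested. Of the 10 erythroid markers, 4 in the knockout channel and 4 in the pool channel were well above background on no 30-week array. Chil3, a chitinase-like protein of specific granules, differed by -2.22 in knockout mice and by -2.93 in the pool. The log2 level of Xist in the pools was 12.42 and 13.12 at 4 weeks, 7.71, 7.60 and 7.55 at 12 weeks, and 12.66, 12.70 and 12.67 at 30 weeks. In knockout mice the Xist level was 13.17 and 13.87 at 4 weeks, 7.31, 12.93 and 7.88 at 12 weeks, and 13.41, 13.16 and 13.22 at 30 weeks. The 12-week pool and replicates 1 and 3 of 12 weeks thus stood apart from both other ages in this sex-linked gene. For levels at 12 weeks, this difference and age cannot be told apart.

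**Figure D4:**
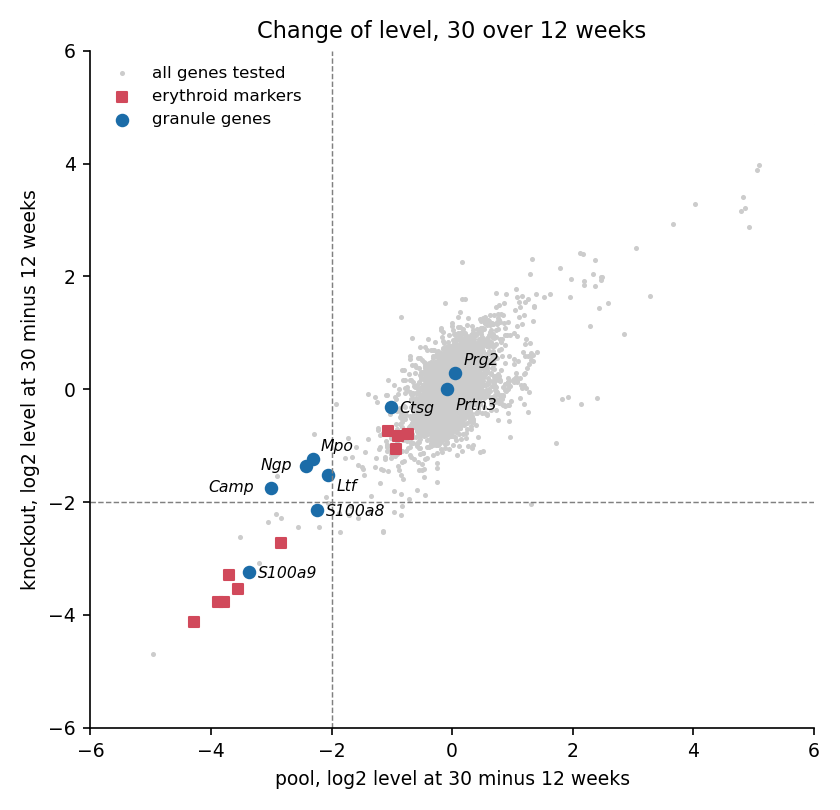
Change of the log2 level between 12 and 30 weeks in the pools (x axis) and in knockout mice (y axis) for all genes tested (grey), erythroid markers (red squares) and granule genes (blue); dashed lines mark a 4-fold lower level, and 23 genes lie outside the axes. The pool values of 6 granule genes lie left of the vertical line, and 2 of these also lie below the horizontal one.

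Other genes of neutrophil granules followed from the lists. Over all 18410 genes, 15.3% were called higher and 7.38% lower at 4 weeks, 1.23% and 1.37% at 12 weeks, and 20.7% and 18.4% at 30 weeks. Every list count that follows is to be read beside these shares. Of 11 azurophil granule genes 10 passed the filter, 3 of them members. Of these 10, 2 were called higher at 4 weeks, 1 lower at 12 weeks (Mpo), and 3 higher and 2 lower at 30 weeks. Srgn, the proteoglycan core on which granule proteases are packed, was higher at 4 weeks (1.01, limma adjusted p = 0.00134) and at 30 weeks (0.45, limma adjusted p = 0.00930), and Ctsc, the protease that activates granule serine proteases, likewise (0.57 and 0.40, limma adjusted p = 0.0109 and 0.0123). Both are also made by many other leukocytes.

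Of 16 specific and gelatinase granule genes 13 passed, 3 of them members. At 4 weeks 2 were called higher, Mmp8, neutrophil collagenase (0.79, limma adjusted p = 0.0197), and Cybb, a subunit of the phagocyte oxidase (0.69, limma adjusted p = 0.0166). At 12 weeks 1 was called lower, Chil3 (-1.03, limma adjusted p = 0.0471), with ratios of -0.87, -1.78 and -0.43, and the call was lost in 13 of 22 alternatives. Its lowest 12-week value was again that of replicate 2. At 30 weeks 1 was called higher (Cybb, 0.52, limma adjusted p = 0.0135) and 2 lower, Cyba, the partner of Cybb (-0.49, limma adjusted p = 0.00654), and Pglyrp1, a peptidoglycan-binding protein (-0.32, limma adjusted p = 0.0317), whose call was lost in 8 of 22 alternatives.

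Of 19 markers of mature neutrophils 15 passed the filter. At 4 weeks 1 was called higher (Retnlg, a resistin-like protein, 1.05, limma adjusted p = 0.0371, lost in 6 of 22 alternatives), at 12 weeks none was called, and at 30 weeks 3 were called lower, among them Ncf1 and Ncf4, cytosolic subunits of the oxidase (-0.53 and -0.33, limma adjusted p = 0.00758 and 0.00511). Of all genes 18.4% were called lower at 30 weeks, so this count of 3 among 15 is near the share of all genes. With arrays centred on the median only, the sign of Ncf4 turned (0.18). Their median ratio was -0.09 at 4 weeks, -0.02 at 12 weeks and -0.07 at 30 weeks.

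Among 10 granulocyte transcription factors that passed the filter, Cebpa, which starts the granulocyte programme, was called lower at every age (-0.51, -0.53 and -0.44, limma adjusted p = 0.0137, 0.0342 and 0.00673), with the call lost in 3, 7 and 1 of 22 alternatives at 4, 12 and 30 weeks. Spi1, which encodes PU.1, was called lower at 30 weeks (-0.34, limma adjusted p = 0.00381), and no other factor was called at an age. Both genes are also expressed in macrophages, and 13 monocyte and macrophage markers split at the same ages, with 4 higher and 2 lower at 4 weeks, none higher and 2 lower at 12 weeks, and 3 higher and 4 lower at 30 weeks.

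Of 7 chemoattractants and growth factors that passed, 2 were called lower at 4 weeks, Ccl24, an eosinophil chemoattractant (-1.14, limma adjusted p = 0.00582), and Ccl5 (-0.72, limma adjusted p = 0.0330), and none at 12 or 30 weeks. The Ccl5 call was lost in 4 of 22 alternatives and its sign turned in 1. Of 9 receptors of calprotectin and formyl peptides and their partners, 2 were called higher at 4 weeks, Ly96, the partner of Tlr4 (0.91, limma adjusted p = 0.000910), and Cd36, a scavenger receptor (1.13, limma adjusted p = 0.00130). At 30 weeks Tlr4, a receptor of S100a8 (0.72, limma adjusted p = 0.0148), and Ly96 (0.38, limma adjusted p = 0.00680) were called higher and Ager (-0.35, limma adjusted p = 0.00564) and Bsg (-0.64, limma adjusted p = 0.00172) lower. Of 10 other S100 genes none was called higher at any age, with 2, 0 and 3 called lower at 4, 12 and 30 weeks.

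Among 8 mast cell and basophil markers, Cma1, mast cell chymase, was called lower at 12 weeks (-0.86, limma adjusted p = 0.0219) and 30 weeks (-0.84, limma adjusted p = 0.00138), and Tpsb2, a mast cell tryptase, at 30 weeks (-0.29, limma adjusted p = 0.00754). Of 10 erythroid markers 3 were called lower at 4 weeks, among them Slc4a1 (-1.22, limma adjusted p = 0.0118), and none at 12 or 30 weeks. Of 8 platelet markers 2 were called lower at 4 weeks, 1 lower at 12 weeks, and 1 higher and 1 lower at 30 weeks. Fat cell markers gave 2 of 10 called lower at 4 weeks and none later, acinar markers none of 17 at any age, plasma cell markers 1 of 7 higher at 4 weeks, 1 higher at 12 weeks and 3 lower at 30 weeks, and lymphocyte markers 2 higher and 1 lower of 12 at 4 weeks, 1 lower at 12 weeks, and 1 higher and 5 lower at 30 weeks.

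The genes whose ratios followed 3 of the members most closely over the 8 arrays were named as a description. For Mpo these were Irs1, Lgals12, Mfsd6, Cdk6 and Lep, at Pearson's r between 0.94 and 0.97. For Prg2 they were Hbp1, Crbn, Cwc15, Leng8 and Ufsp2, at r of 0.98 each to 2 decimals. For S100a9 they were Fermt2, Zfp704, Wdr33, Zbtb46 and Dusp11, at r between 0.93 and 0.97. None of these 15 genes is a granule gene, and each was picked as the highest of all genes tested.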

How the data were processed

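The deposited scanner files of 8 Agilent arrays of 2 colours give spot and local background intensity per the file headers, a processed signal (intensity) and a log10 ratio of red over green, written by Feature Extraction 9.5.3.1 (4-week arrays) or 10.2.1.3. The deposited series matrix holds log2 ratios made by the authors; set against the scanner values they were log2 of red over green, not centred, and their software is not given in the sources used here. The arrays' number limits the precision.

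With limma 3.58.1 in R 4.3.3, intensities were corrected with normexp (offset 50) and loess-normalised within arrays, control spots at weight 0. Levels are those of each channel after Aquantile normalisation. Probes that the scanner software marked well above background in 1 channel throughout an age were kept (27464 probes), and a gene was its brightest kept probe (18410 genes, of which 27 values were missing). The model held a mean for each age over the 8 arrays, with 5 residual degrees of freedom and 3.40 from the prior; 6 contrasts were tested against 0, two-sided, and a gene with a Benjamini-Hochberg adjusted p under 0.05 is called. The fit was tested on simulated data. Gene names came from accessions for 24375 probes, symbols for 6301, synonyms for 2426 and the files for 8072, through RefSeq (GRCm38.p6, names only). Replicate numbers did not pair the arrays: deviations of same-numbered arrays correlated between -0.08 and 0.24.

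The members and lists were chosen with earlier results of these data known. Named are all members, from each list the called genes with the smallest p (up to 4 per direction, not all shown), the 5 genes most like each of 3 members, and Deaf1. Genes of the level comparison outside this rule (Slc4a1, Xist) were chosen after their values were seen.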

Additional observations from a re-analysis of the deposited data

Results flagged for a closer look

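Among the granule genes and the genes named from the lists, the knockout over pool ratio differed between ages by a limma test of the difference itself, with an adjusted p under 0.05, as follows, each value being the later log2 ratio less the earlier one. For 12 minus 4 weeks these were Ccl24 (1.18), Cd36 (-1.46), Chil3 (-1.35), Ear3 (-0.57), Gfi1 (0.56), Ly96 (-0.74), Mmp8 (-1.03), Prg2 (-1.26), Rnase2a (-0.99) and Srgn (-0.74). For 30 minus 4 weeks they were Ager (-0.37), Alox15 (-0.89), Ccl5 (0.89), Cd36 (-1.41), Ear10 (-0.79), Ear3 (-0.50), Il5ra (-0.77), Ly96 (-0.53), Mmp8 (-0.87), Prg2 (-1.02), Prg3 (-0.90), Rnase2a (-0.76), Slc4a1 (1.23), Spi1 (-0.33) and Srgn (-0.56). Over all 18410 genes, 5.61% were called lower and 1.37% higher for 12 minus 4 weeks. For 30 minus 4 weeks 11.7% were called lower and 7.09% higher. The flagged genes were not tested against these shares, so the list is not read as particular to them. Of the members, Prg2 alone was among them at either difference, and every difference involves the 2 arrays of 4 weeks, which formed a slide of their own.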

How the results depend on the processing

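The 12-week call of Prg2 held in 21 of 22 alternatives and its 30-week call in 22 of 22; the 12-week call of Mpo held in 8 of 22. The count of 2 granule genes called lower at 12 weeks became 1 with a normexp offset of 16, the scanner's log ratio, the series matrix, no filter, the mean of probes, array weights or the trend on probe GC removed, 3 with median centring (Mpo, Prtn3 and Prg2), 8 with slide as a random block (consensus correlation -0.26) and 0 with only the ages compared. All genes called at 12 weeks in either direction were 480 as reported, and between 132 and 516 in the settings named as giving 1. They were 10307 with median centring, 8977 with slide as a random block and 6 with only the ages compared. The 30-week count of 1 became 2 with the scanner's log ratio and with the series matrix, and 4 with only the ages compared. All genes called at 30 weeks were 7191 as reported, and 7137, 5449 and 8618 in these 3 settings. With only the ages compared, 2 were called lower and 1 higher at 4 weeks, and 3 lower and 1 higher for 30 minus 4 weeks. Of all genes, 4840 and 5136 were called in these 2 fits. Slide as a random block gave 1 higher for 30 minus 12 weeks, with 2339 of all genes called. Median centring gave 1 higher at 4 weeks (Prg2, 0.87), with 9749 of all genes called. Leaving out 1 array gave 0 to 1 called lower at 4 weeks, 1 to 6 at 12 weeks (6 without replicate 3 of 12 weeks) and, for 12 minus 4 weeks, 0 (without replicate 1 of 4 weeks) to 4 (without replicate 3 of 12 weeks). Without replicate 3 of 12 weeks, 131 of all genes were called at 12 weeks and 492 for 12 minus 4 weeks. Without replicate 1 of 4 weeks, 1 of all genes was called for 12 minus 4 weeks. The cause was not tested.

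Median centring put the median of all genes at 0.49, 0.41 and 0.15 at 4, 12 and 30 weeks, and the share of calls that were higher at 96.0%, 94.1% and 88.1%, against 67.5%, 47.3% and 53.0%. It turned the sign of Mpo (0.34), Ctsg (0.36), Camp (0.24), Ngp (0.42) and Ccl5 (0.21) at 4 weeks, S100a8 at 12 weeks (0.15), Lyz1 (0.35), Cd63 (0.19) and Ncf4 (0.18) at 30 weeks, Prg2 for 30 minus 12 weeks (-0.073), and Mpo (-0.43) and Ctsg (-0.26) for 30 minus 4 weeks. The sign also turned for Camp for 30 minus 4 weeks (-0.32), and for S100a8 (-0.37) and S100a9 (-0.42) for 30 minus 12 weeks. Relative to that median of all genes the sign was kept at 4 weeks for Mpo (-0.15), Ctsg (-0.13), Camp (-0.25) and Ngp (-0.07) and at 12 weeks for S100a8 (-0.26), while that of Mpo for 30 minus 4 weeks turned (-0.17). So did that of Camp for 30 minus 4 weeks (-0.055) and those of S100a8 (-0.23) and S100a9 (-0.28) for 30 minus 12 weeks. In the other alternatives, signs of differences between ages were followed for Mpo, Ctsg and Prg2 only. Other signs turned with the series matrix (Prtn3 at 4 weeks, 0.12), the scanner's log ratio (Prg2 at 4 weeks, -0.015; Ctsg at 30 weeks, -0.000259), array weights (S100a8 at 12 weeks, 0.30), the GC trend removed (Mpo 0.0020, Prtn3 0.095 and Camp 0.044 at 30 weeks) and the mean of probes (Lyz2 at 30 weeks, -0.048). Without both second arrays of 12 and 30 weeks, chosen after seeing the data, S100a8 was 0.58 and S100a9 0.15 at 12 weeks. Leaving out 1 array gave ranges across 0 for Prtn3 (-0.17 to 0.070) and Prg2 (-0.063 to 0.26) at 4 weeks, S100a8 (-1.13 to 0.58) and S100a9 (-1.74 to 0.15) at 12 weeks, and Ctsg (-0.034 to 0.068) and Camp (-0.13 to 0.076) at 30 weeks.

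All genes called ran over the alternatives between 499 and 9749 at 4 weeks (4179 as reported), 6 and 10307 at 12 weeks (480), 3939 and 10179 at 30 weeks (7191), 1 and 4480 for 12 minus 4 weeks (1285), 0 and 2845 for 30 minus 12 weeks (143) and 608 and 6015 for 30 minus 4 weeks (3466). With replicate number as a block, Prg2 had -1.24 for 12 minus 4 weeks (limma adjusted p = 0.0373) and -1.002 for 30 minus 4 weeks (limma adjusted p = 0.0222), 1 granule gene was called lower at each difference as before, and 359, 0 and 2138 genes were called for 12 minus 4, 30 minus 12 and 30 minus 4 weeks. Among 42 results of list genes, 916 alternative fits kept the call in 767, lost it in 144 and turned the sign in 5. Of 54 level differences, 32 moved by more than the spread between arrays with the processed signal, under which 6, 6 and 7 of 9 granule genes in knockout mice and 1, 6 and 7 of 9 in the pools were at least 4-fold lower for 12 over 4, 30 over 12 and 30 over 4 weeks, with 0.739%, 0.483% and 1.06% and with 0.989%, 0.407% and 1.37% of all genes. Signal near background limits Prtn3, Epx and, at 30 weeks, Camp, Ngp and Ltf. S100a8 was well above background in 2 of 3 knockout channels at 30 weeks.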
